A study of Danio rerio with 18 samples.

Results

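The Notch receptors and the Delta and Jagged ligands of zebrafish (Danio rerio) were followed through 18 whole tumours profiled by RNA sequencing. They were chosen by name, as rows of the count table called notch1a, notch1b, notch2, notch3, dla, dlb, dlc, dld, jag1a or jag1b, or by the human-style names NOTCH1, NOTCH3 and DLL1 that stand for some of these. The 10 names gave 11 of 27057 gene rows, of which 4 are receptors and 6 are ligands. The remaining row is called DLD, which in capitals is the human symbol of dihydrolipoamide dehydrogenase, a mitochondrial enzyme. It was kept out of all counts of ligands and had 89.7 to 151 CPM in sox10 tumours, against 66.3 to 203 CPM in mitfa tumours, where CPM are counts scaled to 1000000 reads per library. NOTCH1 and DLL1 each name 2 rows, and since the names do not tell which zebrafish copy each row is, the identifier is given with them.

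All fish were of the Tu line in a p53-/- background and were founder animals injected with a plasmid at the 1-cell stage, so each is a mosaic of cells with and without it. In 12 tumours, called sox10 tumours here, the plasmid was sox10-BRAFV600E, an activated BRAF kinase driven by the sox10 promoter, which is active in neural crest and glia. In 6 tumours, called mitfa tumours, it was mitfa-BRAFV600E, the same kinase driven by the mitfa promoter, which is active in melanocytes and their precursors. Fish were raised to adulthood, but ages, the number of fish and the identity of the fish behind each tumour are not stated in the labels. No label says that the tumours came from separate fish, so a p-value here speaks of the spread among these libraries, which may be technical. The comparison asks how the family is used in tumours begun by 1 oncogene under different promoters.

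Notch receptors sit on the cell surface and are activated by Delta or Jagged proteins on a neighbouring cell. Cleavage by ADAM proteases and gamma-secretase then frees the intracellular part, which joins RBPJ and Mastermind proteins in the nucleus and switches on her, hes and hey genes. In the developing nervous system this signal keeps progenitors and radial glia from becoming neurons, Delta genes being made by the cells that turn toward a neuronal fate, and in the skin of mice it helps maintain melanocyte stem cells.

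Depth was 14973777 to 21191902 assigned reads in sox10 tumours and 15504701 to 19835856 in mitfa tumours. Reads outside annotated genes made up 11.1% to 17.4% in sox10 tumours, against 9.46% to 12.8% in mitfa tumours. The labels give no batch. Sox10 tumours 9 and 10 were far more alike than any other pair: the squared difference of their counts had a median of 2.42 times that of sampling alone, where the remaining 152 pairs had 16.5 to 135 times. As this exceeds sampling error, both were kept, and every member kept its call and direction with the 2 summed into 1 library. The samples are labelled as melanoma. Of 9 melanocyte markers tested, 8 were lower in sox10 tumours, where the list summed to 22.6 to 132 CPM, against 4271 to 18185 CPM in mitfa tumours, and none was at 0 in a whole group. Glial and progenitor markers summed to 7416 to 21988 CPM in sox10 tumours, against 435 to 1008 CPM in mitfa tumours, and 13 of 16 tested were higher. Over all genes tested, 22.4% were lower and 21.5% higher. The pigment markers thus go against the label in sox10 tumours. In whole tumours, fewer cells of a type and less RNA per cell cannot be told apart.

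Both NOTCH1 receptors and 3 Delta ligands were far higher in sox10 tumours, notch2 and dlc were lower, and NOTCH3 and both jag1 genes did not pass the test. All 10 members had enough reads to be tested. Both DLL1 rows and dlb passed the read filter only with sox10 tumours, so for them being tested already depended on the group where they are high. By edgeR's quasi-likelihood test, 2 of the other 7 were higher, 2 lower and 3 not called at an adjusted p under 0.05, and the 3 Delta rows were higher, as they also were with no filter beyond 1 read. Over all 18731 genes tested, 43.9% were called, 21.5% higher and 22.4% lower. In the NOTCH1 rows, the lowest sox10 tumour lay above the highest mitfa tumour, a separation found in 6.85% of all genes tested. The same held for these 3 Delta rows, which says little, as their being tested depended on sox10 tumours. The plot of CPM by tumour shows each value.

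**Figure D1:**
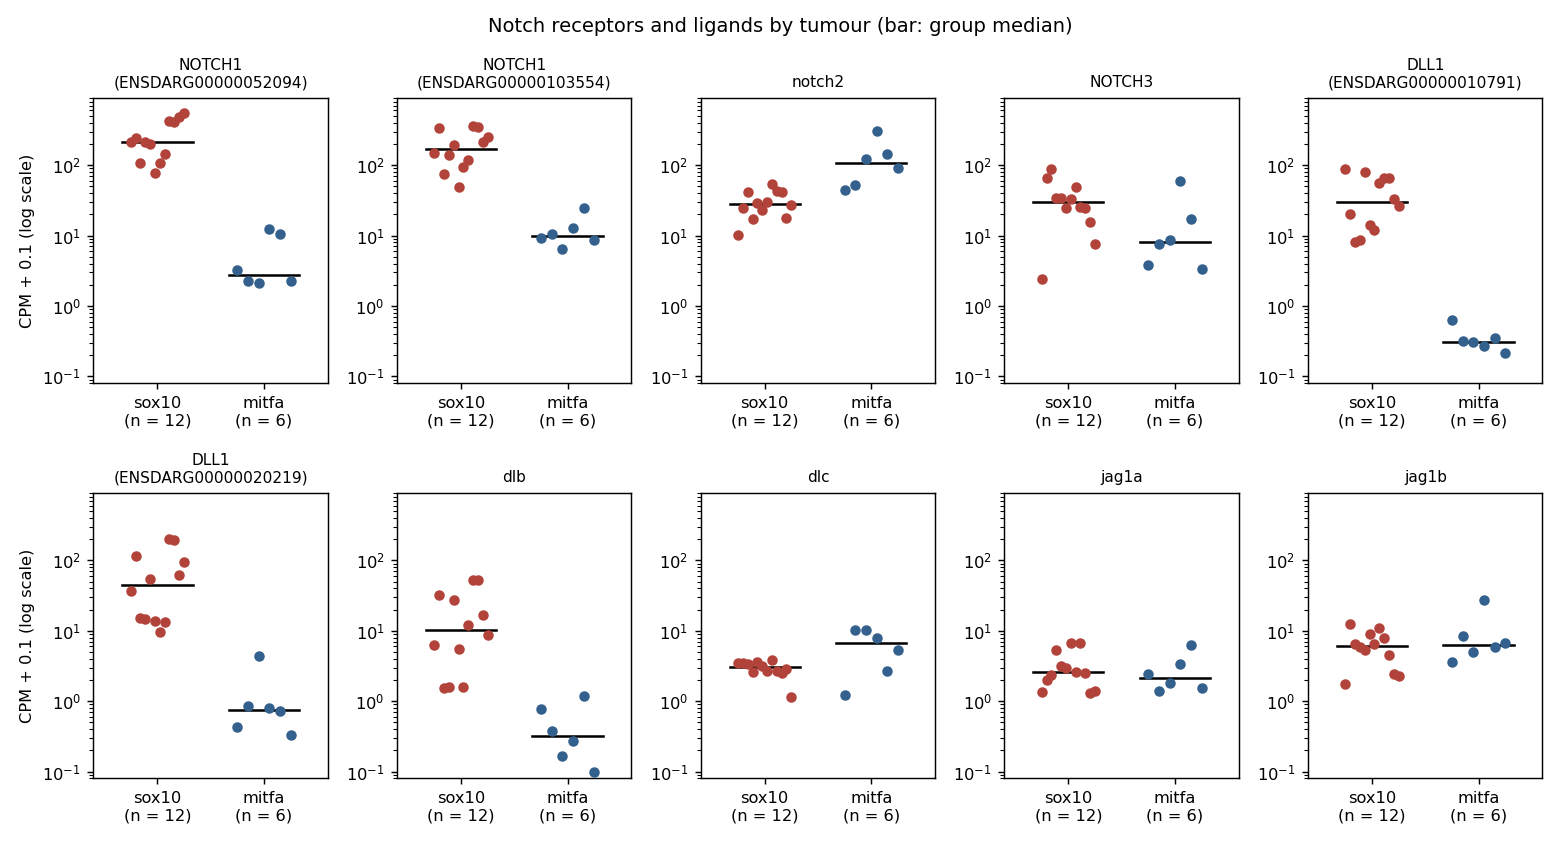
Each panel shows 1 member, with a point per tumour (red, 12 sox10 tumours; blue, 6 mitfa tumours), a bar at the group median, and CPM plus 0.1 on a log axis. The groups are apart for both NOTCH1 rows and both DLL1 rows, and only narrowly so for dlb. For notch2, 11 of 12 sox10 tumours lie below every mitfa tumour.

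Among the receptors, NOTCH1 (ENSDARG00000052094), a copy of the receptor used by neural and vascular progenitors, had 76.0 CPM in the lowest, 212 in the median and 557 in the highest sox10 tumour. In mitfa tumours it had 2.04, 2.67 and 12.2 CPM in the lowest, median and highest. The groups did not overlap, and the mitfa values fell into 4 of 2.04 to 3.18 CPM and 2 of 10.3 and 12.2 CPM, in tumours 5 and 4. Its log2 fold change, sox10 minus mitfa tumours, was 5.63 ± 0.65 (SE, edgeR adjusted p = 1.36e-06), and 4.77 with reads outside genes as a covariate (edgeR adjusted p = 2.83e-05). The mean was 265 ± 163 CPM (SD, n = 12) in sox10 tumours and 5.33 ± 4.63 CPM (SD, n = 6) in mitfa tumours.

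The other copy, NOTCH1 (ENSDARG00000103554), had 48.4, 171 and 357 CPM in the lowest, median and highest sox10 tumour, against 6.26, 9.67 and 24.5 CPM in mitfa tumours. Again no sox10 tumour was as low as the highest mitfa tumour, which was tumour 5. The log2 fold change was 4.03 ± 0.49 (SE, edgeR adjusted p = 2.52e-06). Reads of the first copy over those of the second numbered 0.707 to 2.27 in sox10 tumours and 0.206 to 0.977 in mitfa tumours. Gene length cancels when such a ratio is compared between tumours. Of the 12 sox10 tumours, tumour 2 alone had a ratio below the highest mitfa value, that of tumour 4.

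The third receptor, notch2, fell in sox10 tumours. It had 10.04, 28.1 and 53.1 CPM in the lowest, median and highest sox10 tumour, against 43.5, 107 and 309.6 CPM in mitfa tumours. The groups overlapped only through sox10 tumour 8, at 53.1 CPM, which lay above mitfa tumours 1 and 2. Its log2 fold change was -2.10 ± 0.36 (SE, edgeR adjusted p = 0.00012).

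NOTCH3, the receptor best known in the smooth muscle and pericytes of vessels and in neural progenitors, ranged widely in both groups. It had 2.34, 29.5 and 87.9 CPM in the lowest, median and highest sox10 tumour, against 3.23, 7.98 and 60.4 CPM in mitfa tumours. Sox10 tumours 2 and 3 lay above every mitfa tumour and sox10 tumour 1 below every one. A log2 fold change of 1.01 ± 0.66 was fitted (SE, edgeR adjusted p = 0.224), with a 95% interval of -0.36 to 2.38. This result rests on mitfa tumour 4, the highest of its group. Leaving it out gave a value of 2.07 (edgeR adjusted p = 0.0138). Mural cell markers, among which NOTCH3 itself stands, summed to 134 to 376 CPM in sox10 tumours, against 189 to 782 CPM in mitfa tumours. Of 11 tested, 5 were lower and 0 higher, against 22.4% and 21.5% over all genes tested, and none was at 0 throughout a group. Examples are TAGLN (ENSDARG00000033466), KCNJ8 and ABCC9. KCNJ8 and ABCC9 passed the read filter only with sox10 tumours and lost their calls without mitfa tumour 1. TAGLN lost its call with reads outside genes as a covariate (edgeR adjusted p = 0.152). RGS5 (ENSDARG00000002644) and rgs5b, also called lower, passed the read filter without sox10 tumours. Over the 12 sox10 tumours, NOTCH3 and the sum of the other mural markers had r = -0.16 and rho = -0.26. The part of mural cells in the NOTCH3 values was not tested.

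Among the ligands, the Delta gene DLL1 (ENSDARG00000010791) had 7.95, 29.6 and 89.1 CPM in the lowest, median and highest sox10 tumour, and 0.113, 0.212 and 0.530 CPM in mitfa tumours, where 2 to 8 reads were counted per library. The lowest sox10 tumour, tumour 3, still had 132 reads. The groups did not overlap. The log2 fold change was 7.29 ± 0.76 (SE, edgeR adjusted p = 3.62e-07).

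The other Delta copy, DLL1 (ENSDARG00000020219), had 9.35, 45.3 and 198 CPM in the lowest, median and highest sox10 tumour, against 0.226, 0.655 and 4.22 CPM in mitfa tumours. Mitfa tumour 3 was the highest of its group, and the other 5 were at or below 0.766 CPM. The log2 fold change was 5.91 ± 0.98 (SE, edgeR adjusted p = 7.79e-05), and 6.97 without mitfa tumour 3 (edgeR adjusted p = 2.85e-05). It was 5.08 with reads outside genes as a covariate (edgeR adjusted p = 0.00279).

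The third Delta gene to rise was dlb, which in zebrafish embryos is made by newborn neurons. It had 1.44, 10.3 and 52.6 CPM in the lowest, median and highest sox10 tumour, and 0, 0.224 and 1.08 CPM in mitfa tumours. The sox10 libraries held 24 to 1043 reads of it and the mitfa libraries 0 to 21, where a count of 0, seen in tumour 6, allows up to 3 reads. The groups did not overlap, but the gap was narrow. Sox10 tumour 3 had 1.44 CPM from 24 reads and mitfa tumour 5 had 1.08 CPM from 21 reads, too few to be sure of it. Mean levels stood 48.2-fold apart, and the log2 fold change was 5.55 ± 1.07 (SE, edgeR adjusted p = 0.000338). It was 4.29 with reads outside genes as a covariate (edgeR adjusted p = 0.00983). Leaving out mitfa tumour 5, the highest of its group, gave 6.24 (edgeR adjusted p = 0.000395), and leaving out both mitfa tumours 1 and 5 gave 7.01 (edgeR adjusted p = 0.000557).

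The Delta gene dlc, known in zebrafish from the segmentation of the body axis, was low in both groups and moved the other way. It had 1.04, 2.94 and 3.78 CPM in the lowest, median and highest sox10 tumour, against 1.13, 6.54 and 10.1 CPM in mitfa tumours. Mitfa tumours 1 and 5 were within the sox10 range and the other 4 above it. The log2 fold change was -1.11 ± 0.36 (SE, edgeR adjusted p = 0.0178). This call was lost without mitfa tumour 2 (-0.91, edgeR adjusted p = 0.064), without mitfa tumour 3 (-0.92, edgeR adjusted p = 0.0602) and with reads outside genes as a covariate (-1.12, edgeR adjusted p = 0.0957).

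The Jagged ligands jag1a and jag1b, copies of the ligand that is mutated in human Alagille syndrome, overlapped between the groups. The level of jag1a was 1.22, 2.47 and 6.60 CPM in the lowest, median and highest sox10 tumour, against 1.31, 2.01 and 6.25 CPM in mitfa tumours. Its log2 fold change was 0.19 ± 0.45 (SE, edgeR adjusted p = 0.759), with a 95% interval of -0.74 to 1.12. The level of jag1b was 1.66, 6.05 and 12.2 CPM in the lowest, median and highest sox10 tumour, against 3.51, 6.23 and 27.0 CPM in mitfa tumours. Its log2 fold change was -0.60 ± 0.45 (SE, edgeR adjusted p = 0.287), with a 95% interval of -1.53 to 0.33. Both rest on few reads, 18 to 206 per sox10 library and 24 to 467 per mitfa library. The direction of jag1b depended on mitfa tumour 4, without which its value was 0.08 (edgeR adjusted p = 0.896), and that of jag1a turned to -0.08 with the endothelial marker score as a covariate (edgeR adjusted p = 0.893). Over the 12 sox10 tumours, jag1a and the summed endothelial markers had r = 0.76 and rho = 0.68, and r = 0.61 without the 2 tumours farthest from the median of that sum. The markers summed to 60.1 to 181 CPM in sox10 tumours, against 50.7 to 131 CPM in mitfa tumours, with none at 0 throughout a group. Of 11 tested, 1 was higher (she) and 2 lower (tek and CLDN5, ENSDARG00000014059), against 21.5% and 22.4% over all genes tested. The count is thus no result about the list. The call of she was lost with reads outside genes as a covariate (edgeR adjusted p = 0.0835). The call of tek was lost without mitfa tumour 4 (edgeR adjusted p = 0.0532), and that of CLDN5 without any 1 of mitfa tumours 2, 3 or 6 or sox10 tumours 1 to 7, 11 or 12. The part of vessels in the jag1a values was not tested.

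**Figure D2:**
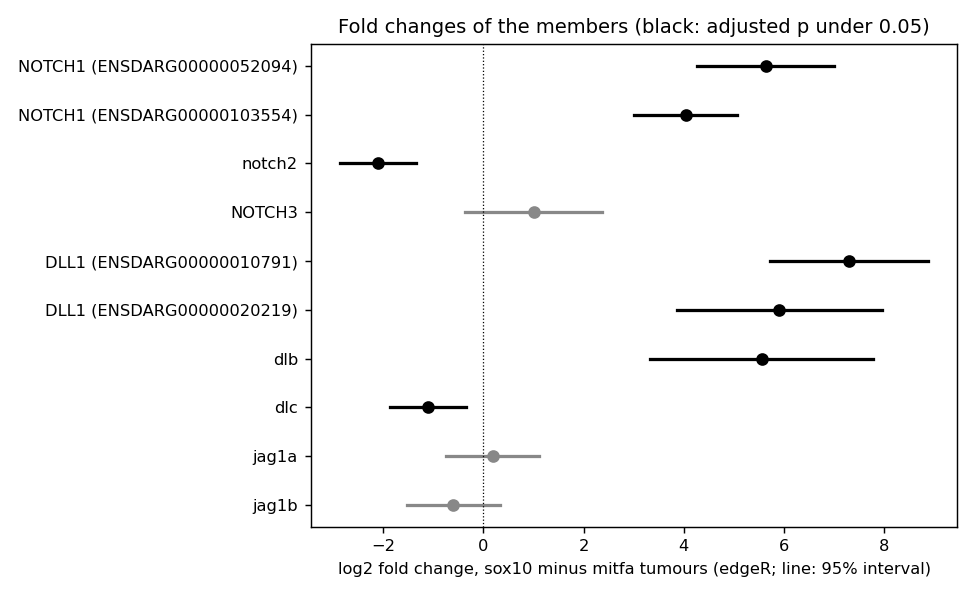
Points are log2 fold changes of the 10 members, sox10 minus mitfa tumours, with 95% intervals from the edgeR fit; black marks an adjusted p under 0.05 and grey the rest. The intervals of both NOTCH1 rows, both DLL1 rows and dlb lie above 0, those of notch2 and dlc below it, and those of NOTCH3, jag1a and jag1b cross it.

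The receptor and ligand makeup of the tumours differed between the plasmids. Transcript lengths were not used here, so the share of reads that a gene took is compared between tumours and not between genes. These shares follow from the same counts as the fold changes and were not tested. Of all receptor reads, the NOTCH1 rows together took 58.2% to 96.7% in sox10 tumours, with a median of 87.0%, against 5.94% to 20.5%, with a median of 13.7%, in mitfa tumours. The share of notch2 was 2.36% to 14.6% in sox10 tumours and 72.3% to 87.9% in mitfa tumours. The NOTCH3 share overlapped, at 0.625% to 28.4% in sox10 tumours and 3.07% to 15.3% in mitfa tumours. Reads of NOTCH3 over those of notch2 did not overlap, at 0.233 to 2.65 in sox10 tumours and 0.0353 to 0.195 in mitfa tumours.

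Among reads of the 6 ligand members, both DLL1 rows and dlb together took 59.7% to 97.1% in sox10 tumours. In mitfa tumours they took 2.50% to 21.2%. Other Notch ligands are outside this total. They summed to 16.7 to 143 CPM in sox10 tumours, against 17.4 to 96.9 CPM in mitfa tumours. The jag1 rows together took 2.11% to 33.5% in sox10 tumours, against 30.9% to 77.3% in mitfa tumours. The share of dlc was 0.75% to 9.14% in sox10 tumours and 13.3% to 47.9% in mitfa tumours. The summed share of the DLL1 rows and dlb, which are the Delta rows that rose, thus separated the groups. The Jagged share overlapped through sox10 tumour 7. With dlc counted in, the Delta share is all that the jag1 rows leave, so it overlapped as well. Shares of dlc and of the jag1 rows also fall where Delta reads are many, since all shares of a tumour add up to the whole, and the CPM of dlc overlapped.

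**Figure D3:**
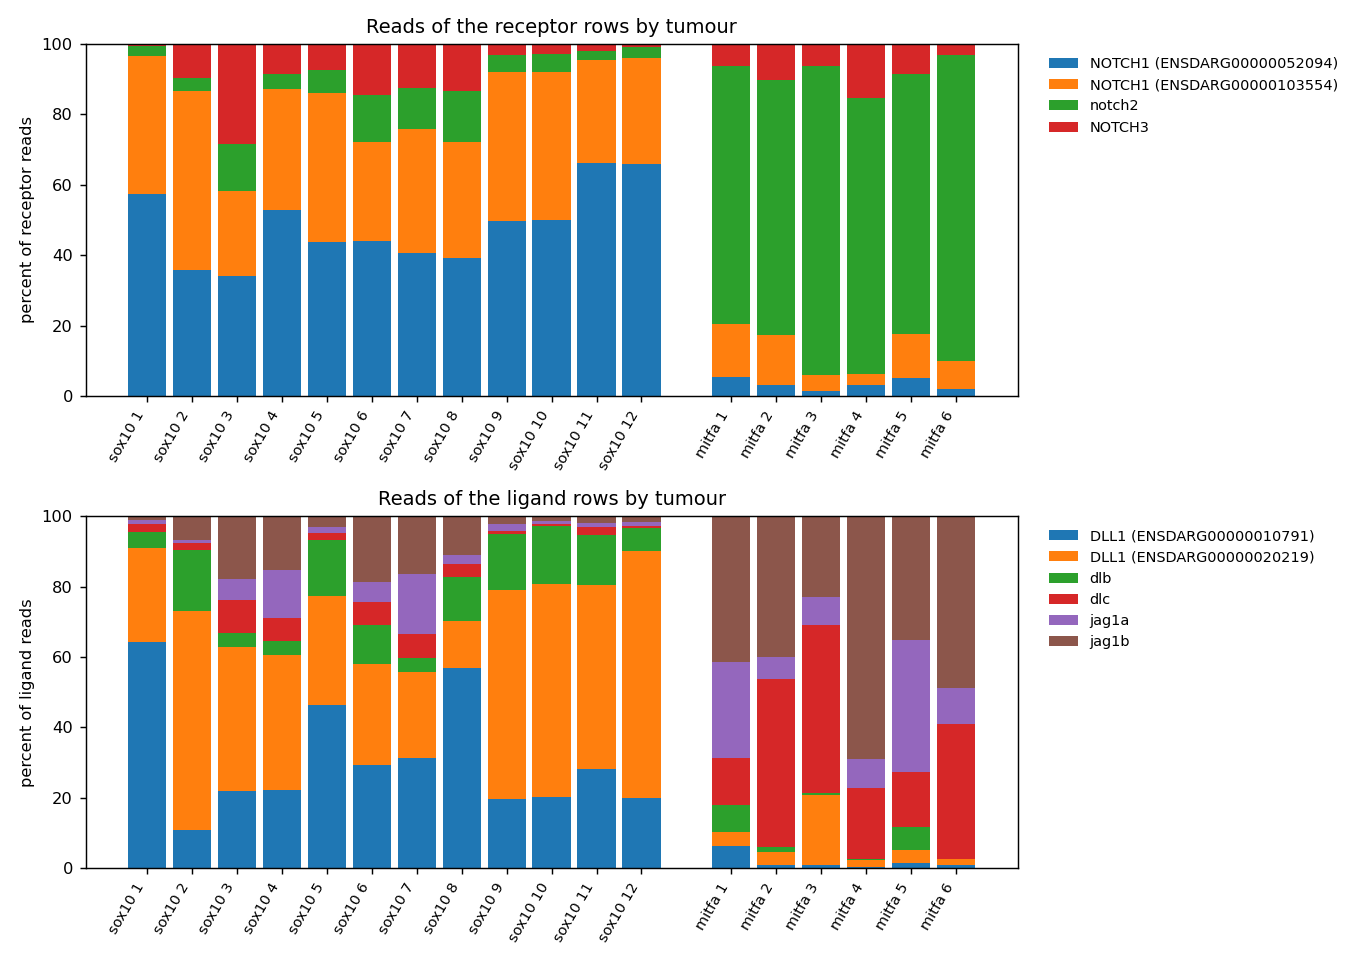
Stacked bars give the percent of reads of the receptor members (top) and of the ligand members (bottom) that came from each member. Bars are sox10 tumours 1 to 12 and mitfa tumours 1 to 6, and other Notch ligands are not included. NOTCH1 rows take 58.2% to 96.7% of receptor reads in sox10 tumours and 5.94% to 20.5% in mitfa tumours; shares also depend on transcript length and are to be compared between tumours.

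Sox10 tumours differed widely from each other in the Delta genes that rose and in NOTCH3. The highest tumour exceeded the lowest 36.4-fold in dlb, 21.2-fold in DLL1 (ENSDARG00000020219), 11.2-fold in DLL1 (ENSDARG00000010791), and 7.33-fold and 7.38-fold in the NOTCH1 rows. NOTCH3 varied 37.6-fold and dlc 3.65-fold. On the log2 scale the SD over the 12 tumours was 1.89 for dlb and 1.39 for NOTCH3, against a median of 0.63 over all genes tested. Between 93.6% and 96.6% of the genes tested had a smaller SD than DLL1 (ENSDARG00000020219) and dlb.

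Tumour by tumour, sox10 tumours 9 and 10 stood highest in DLL1 (ENSDARG00000020219), at 198 and 195 CPM, and in dlb, at 52.6 and 52.5 CPM. Both were also high in the NOTCH1 rows. Their counts are alike throughout, as given above, so these are not clearly separate observations. They parted in jag1a, with 6.60 CPM from 111 reads in tumour 9 and 2.42 CPM from 48 reads in tumour 10. Sox10 tumour 2 shared this profile, with 114 CPM of DLL1 (ENSDARG00000020219), 31.9 CPM of dlb and 339.8 CPM of NOTCH1 (ENSDARG00000103554). It also had the highest jag1b of the group, 12.2 CPM, and high NOTCH3, 64.9 CPM, but only 19.9 CPM of DLL1 (ENSDARG00000010791).

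Sox10 tumours 11 and 12 had the highest levels of NOTCH1 (ENSDARG00000052094), 489 and 557 CPM. Their NOTCH3 was low, at 15.6 and 7.58 CPM, and most of their Delta values were in the middle of the group. Tumour 12 stood higher in DLL1 (ENSDARG00000020219), at 93.2 CPM. Sox10 tumours 1, 5 and 8 were high in the other Delta copy, DLL1 (ENSDARG00000010791), at 89.1, 80.2 and 56.1 CPM. So were tumours 9 and 10, at 66.0 and 65.0 CPM. Tumour 1 was the lowest of all 18 tumours in NOTCH3, at 2.34 CPM, and in notch2, at 10.04 CPM.

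Sox10 tumours 3, 4, 6 and 7 were low in all 3 Delta genes. They had 7.95 to 14.1 CPM of DLL1 (ENSDARG00000010791), 9.35 to 14.9 CPM of DLL1 (ENSDARG00000020219) and 1.44 to 5.34 CPM of dlb. Even so, each value lay above the highest mitfa tumour of the same gene, though for dlb only narrowly. Tumour 3 had the highest NOTCH3 of all tumours, 87.9 CPM, and tumour 6 the lowest levels of both NOTCH1 rows among sox10 tumours. Reads of DLL1 (ENSDARG00000010791) over those of DLL1 (ENSDARG00000020219) ran from 0.175 in tumour 2 to 4.25 in tumour 8, so the balance of the copies differed between tumours.

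**Figure D4:**
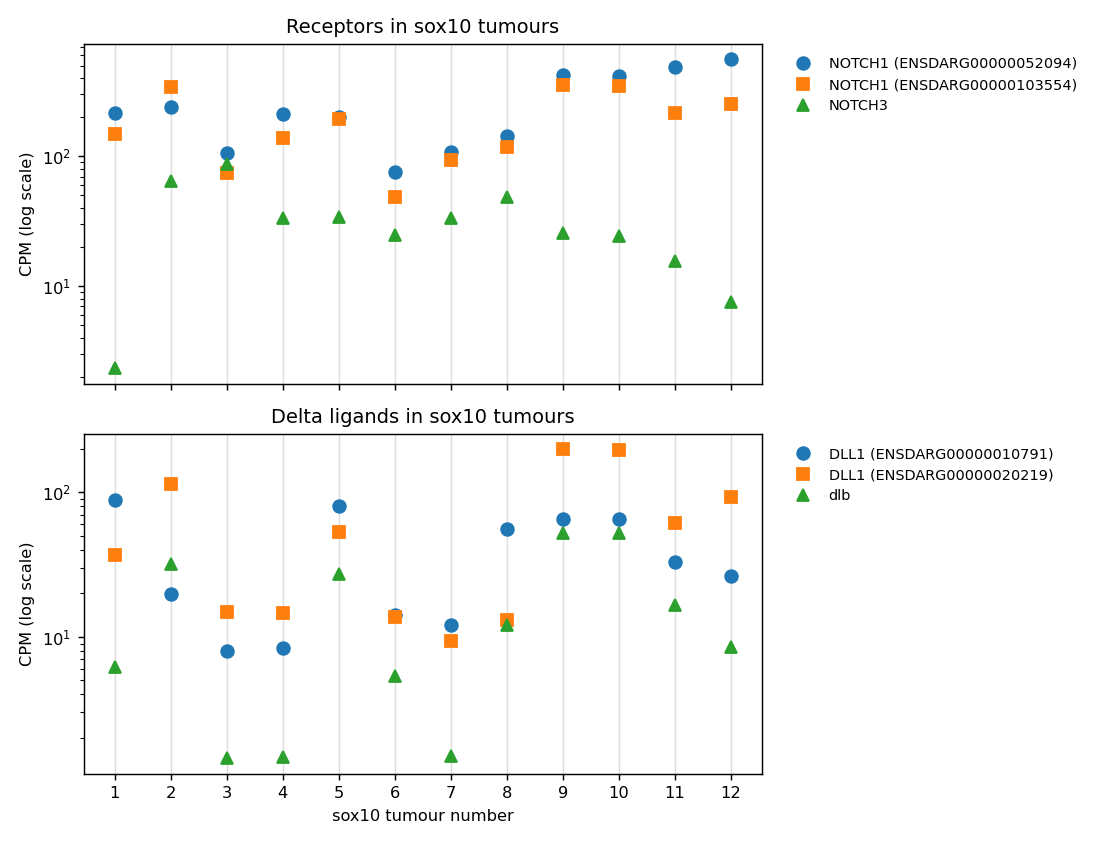
Points give CPM on a log axis for NOTCH1 rows and NOTCH3 (top) and for both DLL1 rows and dlb (bottom) in sox10 tumours 1 to 12; heights are comparable between tumours and not between genes. Tumours 9 and 10 are highest in DLL1 (ENSDARG00000020219) and dlb, tumour 1 is highest in DLL1 (ENSDARG00000010791) and lowest in NOTCH3, and tumours 3, 4, 6 and 7 are low in all 3 Delta genes.

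Some members that rose varied together within sox10 tumours, and others less so. Correlations of log2 CPM over these 12 tumours are given as a description, and the tumours share the same libraries and scaling for both genes. NOTCH1 (ENSDARG00000103554) and DLL1 (ENSDARG00000020219) had r = 0.91 and rho = 0.92, and r = 0.87 without tumours 9 and 10. The NOTCH1 rows had r = 0.88 with each other, and DLL1 (ENSDARG00000020219) and dlb had r = 0.85, or 0.76 without tumours 9 and 10. The DLL1 rows were less alike, with r = 0.57, or 0.42 without those tumours. DLL1 (ENSDARG00000010791) had r = 0.47 with NOTCH1 (ENSDARG00000052094) and 0.54 with NOTCH1 (ENSDARG00000103554), or 0.34 and 0.40 without those tumours. The value of NOTCH1 (ENSDARG00000052094) with dlb was 0.61, or 0.46 without them. A second group was formed by NOTCH3 and jag1b, with r = 0.84 and rho = 0.75, whose r with NOTCH1 (ENSDARG00000052094) was -0.40 and -0.51, and with NOTCH1 (ENSDARG00000103554) -0.16 and -0.19. Less closely, notch2 went with both, at r = 0.66 and rho = 0.47 with NOTCH3 and r = 0.59 and rho = 0.45 with jag1b.

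Among 13172 other named genes at 2 CPM or more in sox10 tumours, the patterns most like NOTCH1 (ENSDARG00000052094) over the 12 tumours were those of SRRT (r = 0.97), cnot3b (r = 0.95) and thrap3b (r = 0.93). For NOTCH1 (ENSDARG00000103554) they were wdr33 (r = 0.97), nphp4 (r = 0.96) and pom121 (r = 0.94). For DLL1 (ENSDARG00000010791) they were nucks1b (r = 0.94), CDCA4 (r = 0.91) and YY1 (r = 0.90). SYNCRIP (r = 0.95), bod1l1 (r = 0.93) and prnpa (r = 0.91) followed DLL1 (ENSDARG00000020219) most closely, and CCN1 (r = 0.90), uspl1 (r = 0.89) and ROBO3 (r = 0.88) followed dlb. For notch2 they were CRABP1 (r = 0.88), epdl1 (r = 0.88) and themis2 (r = 0.88), for NOTCH3 GGCX (r = 0.90), abca1b (r = 0.88) and smad10b (r = 0.87), and for dlc PUDP (r = 0.94), TMEM208 (r = 0.92) and ENOSF1 (r = 0.91). For jag1a they were col4a5 (r = 0.92), ATP2A3 (r = 0.88) and GAS6 (r = 0.88), and for jag1b BICC1 (r = 0.87), LRIG1 (r = 0.86) and NOTCH3 itself (r = 0.84). All are the highest values of a large search.

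Skeletal muscle markers went with the Delta genes and the NOTCH1 rows in some sox10 tumours and not in others. They summed to 15.7 to 43.2 CPM in sox10 tumours 3, 4, 5, 6 and 7 and to 669.5 to 7286 CPM in the other 7, so the tumours form separate clusters and no correlation is given. NOTCH1 (ENSDARG00000052094) had 76.0 to 210.5 CPM in the 5 tumours low in muscle and 142 to 557 CPM in the other 7, and NOTCH1 (ENSDARG00000103554) had 48.4 to 194 CPM and 119 to 357 CPM. The 4 tumours low in all 3 Delta genes were all low in muscle. Tumour 5, also low in muscle, had 80.2 CPM of DLL1 (ENSDARG00000010791), 53.5 CPM of DLL1 (ENSDARG00000020219) and 27.3 CPM of dlb. Tumour 8, with 5627 CPM of muscle markers, had only 13.2 CPM of DLL1 (ENSDARG00000020219), but 56.1 CPM of DLL1 (ENSDARG00000010791) and 12.1 CPM of dlb. In mitfa tumours muscle summed to 20.8 to 17020 CPM, and none of 6 markers tested was called. Mitfa tumour 5, with the highest sum, had 0.256 and 0.615 CPM of the DLL1 rows. It was the highest of its group in NOTCH1 (ENSDARG00000103554), at 24.5 CPM, and in dlb, at 1.08 CPM. Its level of NOTCH1 (ENSDARG00000052094), 10.3 CPM, was second to that of mitfa tumour 4. Neuronal markers summed to 449 to 1649 CPM in sox10 tumours, against 22.0 to 296 CPM in mitfa tumours. Of 9 tested, 8 were higher, against 21.5% over all genes tested, but 7 of the 9 passed the read filter only with sox10 tumours. The highest neuronal sums were in sox10 tumours 4 and 7, which were among the lowest in Delta genes. Both also lay below the sox10 median in the NOTCH1 rows. All 5 raised members kept their calls without these 2 tumours, which says little, since low tumours of the higher group were left out. The part of muscle or neurons in the Delta and NOTCH1 values was not tested.

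Mitfa tumours also differed from each other. Tumour 4 was highest in notch2 (309.6 CPM), NOTCH3 (60.4 CPM), jag1b (27.0 CPM) and NOTCH1 (ENSDARG00000052094). Tumour 5 was highest in NOTCH1 (ENSDARG00000103554), dlb and jag1a (6.25 CPM). Tumours 2 and 3 were highest in dlc, at 10.1 CPM each, and tumour 1 was lowest in dlc, at 1.13 CPM. Mitfa tumours 1 and 5 had 57.8 and 80.9 CPM of OLIG2, an oligodendrocyte lineage factor, where the other 4 had at most 1.25 CPM. Both had the highest dlb of the group, 0.663 and 1.08 CPM, and the lowest dlc. These dlb values rest on only 10 and 21 reads, where the other 4 had at most 5.

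Of the other Notch ligands, 2 of 4 tested were higher and 0 lower, against 21.5% and 22.4% over all genes tested. DNER, called higher, and jag2a passed the read filter only with sox10 tumours. Of the other 2, jag2b was higher and dll4 not called, so the count says little. The level of jag2b was 12.3, 87.7 and 135 CPM in the lowest, median and highest sox10 tumour, against 15.5, 28.8 and 87.0 CPM in mitfa tumours. The groups overlapped, with a log2 fold change of 1.07 (edgeR adjusted p = 0.0368), a call lost without any 1 of mitfa tumours 1, 2, 5 or 6 or sox10 tumours 3, 5, 10 or 12 and with sox10 tumours 9 and 10 summed. DNER, a Notch ligand of neurons in mice, had 0, 0.759 and 21.3 CPM in sox10 tumours, against 0, 0.0273 and 0.0681 CPM in mitfa tumours, from 0 to 1 read per mitfa library. On the log2 scale it was higher by 6.37 (edgeR adjusted p = 0.00353), by 5.27 without sox10 tumour 7 (edgeR adjusted p = 0.00379) and by 3.75 with limma, whose test it did not pass (adjusted p = 0.0894). The vascular ligand dll4 (0.36, edgeR adjusted p = 0.426) and jag2a (-0.64, edgeR adjusted p = 0.369) were not called.

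Of the her, hes, hey and nrarp families, which hold Notch target genes, 23 rows were found and 17 had enough reads. The list goes by family, and whether each row answers to Notch in these tumours was not tested. Of these 17, 11 passed the read filter only with sox10 tumours, and all 11 were called higher, which says little because the filter had asked for reads in sox10 tumours. Of the other 6, 3 were higher (HES6, ENSDARG00000019335, and both NRARP rows), 0 lower and 3 not called, where 21.5% of all genes tested were higher. HES6 (ENSDARG00000019335), a member of the family that in mice promotes neuronal differentiation, had 28.9, 78.1 and 111 CPM in the lowest, median and highest sox10 tumour, against 4.44, 7.34 and 9.84 CPM in mitfa tumours. The groups did not overlap, and on the log2 scale it rose by 3.34 (edgeR adjusted p = 5.36e-07). The repressor her15.1, among the 11, had 0.439, 3.48 and 9.59 CPM in sox10 tumours, against 0, 0.0283 and 0.109 CPM in mitfa tumours (log2 fold change 6.49, edgeR adjusted p = 2.70e-06). Not called were HES4 (0.52 on the log2 scale, edgeR adjusted p = 0.155), HEY1 (0.85, edgeR adjusted p = 0.259) and HES1 (-0.34, edgeR adjusted p = 0.501).

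The her4 genes of zebrafish, direct Notch targets in radial glia, are near-identical neighbouring copies. Their reads may be split among the copies or, where they match several, be left unassigned, so the levels may be too low. The row her4.4, also among the 11, was called higher (edgeR adjusted p = 6.57e-06), with 0.0488 to 3.85 CPM in sox10 tumours and at most 0.0566 CPM in mitfa tumours. Summed over their 5 rows, the her4 genes had 0.634, 10.4 and 22.2 CPM in the lowest, median and highest sox10 tumour. In mitfa tumours they had 0.0681, 0.157 and 0.453 CPM. The groups did not overlap. The her4 rows tested passed the read filter only with sox10 tumours, so this separation says little. Sox10 tumours 1 and 11 were lowest, at 0.634 and 1.08 CPM, although tumour 1 had the highest DLL1 (ENSDARG00000010791) and tumour 11 the second highest NOTCH1 (ENSDARG00000052094). Tumours 3 and 2, the highest in NOTCH3, were also the highest in her4, at 22.2 and 17.3 CPM. Tumour 12, with only 7.58 CPM of NOTCH3, still had 10.2 CPM of her4. The tumours lowest in her4 were thus not those lowest in NOTCH1 or in the Delta genes. Whether her4 follows any member over the sox10 tumours was not tested.

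**Figure D5:**
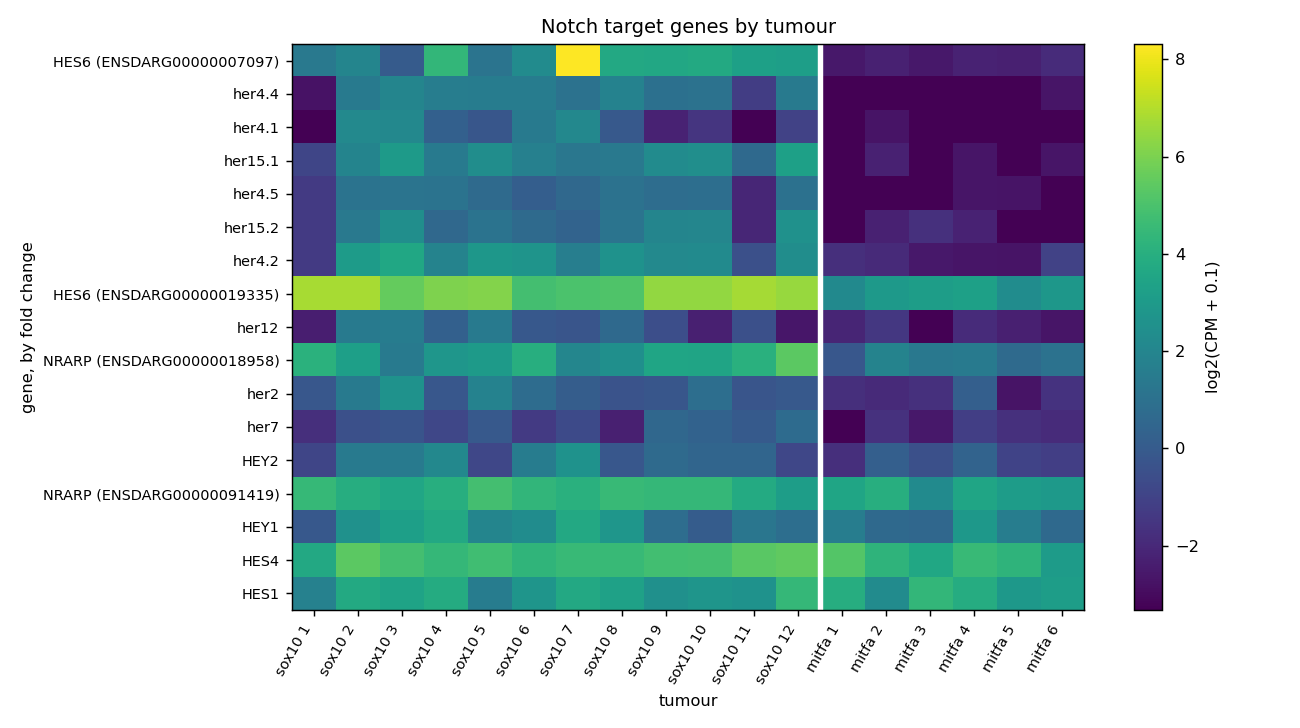
Colour gives log2(CPM + 0.1) of the 17 her, hes, hey and nrarp genes tested, ordered by fold change, in sox10 tumours 1 to 12 and mitfa tumours 1 to 6. The her4 and her15 rows are brighter in most sox10 tumours than in sox10 tumours 1 and 11, and darkest in mitfa tumours. HES1, HES4 and HEY1 overlap between the groups.

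Among genes that process ligands and receptors, 6 of 21 were higher and 4 lower, near the shares of 21.5% and 22.4% over all genes tested, so the count is no result about the list. POFUT1, which adds the fucose that Notch receptors need, had 2.97, 4.49 and 10.7 CPM in the lowest, median and highest sox10 tumour, against 19.3, 31.1 and 64.1 CPM in mitfa tumours. No sox10 tumour reached the lowest mitfa tumour, a separation found in 4.91% of genes tested (log2 fold change -2.72, edgeR adjusted p = 4.25e-07). Both ADAM17 rows, a protease able to cleave Notch, were lower, ENSDARG00000043213 at -1.53 on the log2 scale (edgeR adjusted p = 1.59e-05) and ENSDARG00000093093 at -1.67 (edgeR adjusted p = 0.000108). MIB1, the ubiquitin ligase that activates Delta, had 43.2, 118 and 150 CPM in sox10 tumours, against 32.5, 39.7 and 73.3 CPM in mitfa tumours (log2 fold change 1.30, edgeR adjusted p = 0.000282). DTX4, a Deltex ubiquitin ligase, and numbl, a relative of the Notch inhibitor Numb, were higher by 2.72 and 1.85 on the log2 scale (edgeR adjusted p = 0.000276 and 0.000306).

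In the nuclear complex, 6 of 11 were higher and 0 lower, against 21.5% and 22.4% over all genes tested, and the median log2 fold change was 0.49. The 3 with the smallest adjusted p follow. Both rows of SPEN, a co-repressor that binds RBPJ, rose, ENSDARG00000074245 by 1.23 on the log2 scale (edgeR adjusted p = 0.000581) and ENSDARG00000074332 by 1.12 (edgeR adjusted p = 0.00229), as did EP300 (ENSDARG00000100666), a co-activator, by 0.98 (edgeR adjusted p = 0.00361). With reads outside genes as a covariate, 0 of the 11 were called higher. Sox10 tumours tended to have more such reads, as given above.

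Proneural factors, which switch on Delta genes in neural progenitors, had 4 of 11 rows tested. All 4 passed the read filter only with sox10 tumours and were called higher. Being tested thus already depended on the group where they are high, so their count and single tests say little. The level of ascl1b was 15.3, 73.4 and 111 CPM in the lowest, median and highest sox10 tumour, against 0.136, 0.297 and 0.564 CPM in mitfa tumours. The groups did not overlap, which says little for the same reason. On the log2 scale ascl1b rose by 7.79 (edgeR adjusted p = 4.95e-09). INSM1 (ENSDARG00000053301), a factor of differentiating neurons and endocrine cells, had 0.722, 15.3 and 61.3 CPM in sox10 tumours, against 0, 0.0830 and 0.868 CPM in mitfa tumours (log2 fold change 6.65, edgeR adjusted p = 8.63e-05). NEUROD1 had 0.181, 6.52 and 31.6 CPM in sox10 tumours, and at most 0.133 CPM in mitfa tumours (edgeR adjusted p = 0.000116). Epidermis markers, the remaining list, had 1 of 6 lower (cdh1) and 0 higher, against 22.4% and 21.5% over all genes tested.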

How the data were processed

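Total RNA of whole tumours was extracted with Trizol and made into libraries by Illumina protocols, per the labels' protocols. The submitters' processing notes name FastQC, Trimmomatic, STAR, DESeq2 and the build GRCz10, with no versions, and neither the annotation nor the strand setting is given there. The authors deposited whole-number read counts for 27057 genes, which were used as deposited. Unassigned reads, 21.7% to 30.1% of each sox10 library and 19.9% to 24.6% of each mitfa library, entered neither library sizes nor tests. Gene names came from a table of identifiers and symbols and covered 24020 genes. No sequence or coordinate is given, as the other gene table is of the build GRCz12tu.

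Counts were tested with edgeR 4.0.16 (quasi-likelihood, robust, TMM factors, R 4.3.3) over the 18731 genes past filterByExpr (minimum count 10, total 15), with Benjamini-Hochberg adjustment over all of them and calls at 0.05. All 12 sox10 and 6 mitfa tumours entered, with no covariate. CPM are TMM-scaled, and log2 CPM used a prior count of 2. Alternatives used DESeq2 1.42.0, limma 3.58.1, other scalings, filters, covariates and sets of tumours. Antisense overlaps and the reads of near-identical copies cannot be told apart here.

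Members and lists (12 lists, 145 names, 143 rows matched, 15 names unmatched) were chosen with earlier results of these data known. Named genes are all members, the 3 called genes per direction and pathway list with the smallest adjusted p, up to 3 examples per marker list, and the 3 genes closest to each member in pattern. TAGLN, KCNJ8, she, tek, CLDN5 and cdh1 are such examples. OLIG2, RGS5, rgs5b, HES4, HEY1, HES1, dll4, jag2a and the her4 sum were added after their values were seen. Levels per length had been planned and were replaced by read shares, because transcript lengths were not used here.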

Additional observations from a re-analysis of the deposited data

Results flagged for a closer look

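Each of the 10 members was checked in the mitfa group, where 6 tumours allow it, for a highest or lowest tumour standing apart from the rest. Chance alone flags about 1 in 20 such groups where values are normally distributed. The check used CPM without a log, and their distribution was not tested. The number of flags is therefore not compared with that rate. In 5 members the highest mitfa tumour stood apart. NOTCH1 (ENSDARG00000103554) had 24.5 CPM in mitfa tumour 5, and the next highest value was 12.5 CPM. NOTCH3 had 60.4 CPM in mitfa tumour 4, with 16.9 CPM next. DLL1 (ENSDARG00000010791) had 0.530 CPM in mitfa tumour 1, from 8 reads, with 0.256 CPM next. DLL1 (ENSDARG00000020219) had 4.22 CPM in mitfa tumour 3, with 0.766 CPM next. The last was jag1b, at 27.0 CPM in mitfa tumour 4, with 8.42 CPM next. The flags fell in 4 different tumours, and tumour 4 carried those of NOTCH3 and jag1b.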

How the results depend on the processing

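The 5 members higher in sox10 tumours and notch2 kept their calls and directions in all 12 alternatives of test, scaling, filter, covariate or samples and in each of the 18 fits that left out 1 tumour. Of these members, dlb came closest to losing its call, with an adjusted p just under 0.05 in its least favourable alternative. Calls lower among members numbered 1 instead of 2 with a minimum of 5 CPM in 6 tumours, with the replicate block and with reads outside genes as a covariate, and 1 to 2 when 1 tumour was left out. The change in each case was that of dlc, which is under the 5 CPM minimum. The log2 fold change of jag1a turned to -0.46 with reads outside genes as a covariate, -0.0755 with the endothelial covariate and -0.14 without sox10 tumours 4 and 7, and that of jag1b ranged from -0.77 to 0.0759 when 1 tumour was left out. The cause was not tested.

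Among lists, other ligands called higher numbered 0 with the replicate block, with reads outside genes as a covariate and without sox10 tumours 4 and 7, and 1 with limma, the 5 CPM minimum, the endothelial covariate, sox10 tumours 9 and 10 summed, or without mitfa tumours 1 and 5 (2 in the report, 1 to 2 when 1 tumour was left out). Other ligands called lower numbered 1 with DESeq2, without a filter and without mitfa tumours 1 and 5, and 0 to 1 when 1 tumour was left out. Proneural factors called higher numbered 7 with DESeq2. Genes of the her, hes, hey and nrarp list called higher numbered 5 with the 5 CPM minimum and 5 with the block. Nuclear complex genes called higher numbered 2 with the block and 0 with reads outside genes as a covariate, which also left 3 processing genes higher.

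Over all genes, 2279 were higher and 2216 lower with the replicate block, and 2432 and 2489 with reads outside genes as a covariate, against 4024 and 4190 in the report. The block used only the numbers 1 to 6 that both groups share. Same-numbered tumours had correlations of -0.31 to 0.17, so the numbers do not pair them. Under the block, dlc had a log2 fold change of -0.70 (edgeR adjusted p = 0.379), dlb 4.78 and DLL1 (ENSDARG00000010791) 6.68. The planned levels per length, and the order of receptors and ligands by them, were not run. At this depth, mitfa tumours hold too few reads of DLL1 (ENSDARG00000010791) and dlb to order them by level.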
